A study of Homo sapiens with 30 samples.

Results

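The MYC, MAX and MXI1 network was described across all 10 groups of a study of intestinal epithelial cells exposed to nanoparticles. Its members are MYC, MAX, MXI1, MXD1, MXD4, MNT and MLX, and they were taken as every probe set that the platform annotation pairs with exactly 1 of these symbols. This gave 13 of 22215 tested probe sets, for 6 of the 7 members, among 11963 genes with a symbol of their own. MAX had 5 probe sets, MLX had 4, and MYC, MXI1, MXD1 and MNT had 1 each. MXD4 had none under its own symbol alone and is described only with the other observations. The set was selected on measured values of these arrays: the low MXI1 level at 1 h was known when it was drawn up. Values at 1 h against control, and at 24 h against 1 h, are therefore a description, given without p-values. Where such a value is said to be called or to pass the threshold (limma, Benjamini-Hochberg adjusted p under 0.05), this only places it beside the share of all probe sets called, and nothing is supported by it.

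The cells were a co-culture of Caco-2 (75%), colorectal carcinoma cells of human origin that become enterocyte-like once confluent, and HT29-MTX (25%), colon carcinoma cells that were selected with methotrexate and secrete mucus. They had been kept for 14 days on Transwell inserts, so that every group shares this mixture and its differentiation. Flasks were pooled before seeding, so the arrays of a group are wells of pooled cells and p-values measure the spread between these wells. Multi-walled carbon nanotubes (MWCNT) or titanium dioxide nanobelts (TiO2-NB) were added to the apical side at 10 or 100 µg/ml for 1 or 24 h. Controls at 1 h and 24 h had new medium without particles above and below the insert. A suspension taken through the same preparation without particles is not named in the labels. Each of the 10 groups has 3 replicates, 1 Affymetrix array each, which makes 30 arrays. The values are log2 probe set levels.

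MYC is a transcription factor that promotes ribosome production, biosynthesis and proliferation. It binds DNA only as a dimer with MAX, at E-boxes. The MXD proteins, among them MXI1 and MXD1, and the related MNT compete for MAX and recruit the SIN3 co-repressor with histone deacetylases to the same kind of site. MLX forms a parallel arm: it pairs with MLXIP or MLXIPL, which respond to glucose metabolites, and with MNT and some MXD proteins. In the intestinal epithelium, MYC is high in proliferating crypt cells, whereas MXD1 is known from differentiated cells.

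Promoter windows were read from RefSeq sequences of the GRCh38.p14 assembly, each covering 250 bases before and 50 after an annotated start. Windows were found for 6 members, 9 in all, and none was used for MYC. They were searched on both strands for the E-box CACGTG, bound by MAX dimers, for GTAAACA, a motif of the FOXO factors, which are known to induce MXI1, and for ACGTG or GCGTG, the core recognised by hypoxia-inducible factors, which also act on MXI1. CACGTG contains ACGTG. Of 35116 windows of this length, 7.26% held CACGTG, 3.42% held GTAAACA and 48.4% held a hypoxia core. MXI1 has 3 windows on chromosome 10. GTAAACA was found in the second window, on the opposite strand 151 bases before the start, and in the third, where it begins 2 bases before the start. The second window also held hypoxia cores 127 and 113 bases before the start. The third held them 131 bases before and 8 bases after its start. The first MXI1 window, chr10:110207355-110207654 on the plus strand, held none of these motifs. Apart from CACGTG, hypoxia cores were also found in a MAX window and in that of MLX, 22 and 42 bases before the start. The MNT window held CACGTG 193 bases before the start, and MLX and MXD4 also held 1 each. The sequences of MXI1 and MNT are shown because, of the members with probe sets under their own symbol, only these repressors were called lower at 1 h. Each run covers 250 bases before and 10 after the start, 5′ to 3′ on the gene's strand. Capitals mark GTAAACA or its reverse complement in MXI1 and CACGTG in MNT.
MXI1, chr10:110209981-110210240, plus strand: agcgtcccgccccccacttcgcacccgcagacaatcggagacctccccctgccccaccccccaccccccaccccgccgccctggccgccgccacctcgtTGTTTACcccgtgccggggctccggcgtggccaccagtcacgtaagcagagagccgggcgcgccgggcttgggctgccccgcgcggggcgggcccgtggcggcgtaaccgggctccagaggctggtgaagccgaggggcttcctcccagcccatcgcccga
MXI1, chr10:110225746-110226005, plus strand: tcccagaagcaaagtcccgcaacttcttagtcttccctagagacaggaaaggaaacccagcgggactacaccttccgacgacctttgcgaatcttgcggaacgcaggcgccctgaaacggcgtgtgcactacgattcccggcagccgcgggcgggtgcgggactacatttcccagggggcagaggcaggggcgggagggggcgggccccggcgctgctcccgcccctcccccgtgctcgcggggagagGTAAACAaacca
MNT, chr17:2401051-2401310, minus strand: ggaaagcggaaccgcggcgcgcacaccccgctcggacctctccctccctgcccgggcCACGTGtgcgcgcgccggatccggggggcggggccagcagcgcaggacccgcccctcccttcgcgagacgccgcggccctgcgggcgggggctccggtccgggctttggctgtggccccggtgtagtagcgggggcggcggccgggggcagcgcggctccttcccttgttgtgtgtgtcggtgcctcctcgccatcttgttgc
These matches describe letters in the windows. No binding was measured, and the array does not tell which MXI1 start was in use.

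Markers of both cell lines' known features were found only in part. Over 30 arrays, the enterocyte markers FABP1, CDH17 and VIL1 had mean log2 levels of 13.84, 12.77 and 11.92. The lowest of that list, CDX2, ANPEP and ALPI, were at 8.60, 8.18 and 8.03. The mucus cell markers AGR2, TFF1 and TFF3 were at 13.10, 12.77 and 11.53, but MUC2, MUC5AC and CLCA1 were at 6.07, 6.72 and 4.25. PTPRC, which marks leukocytes, and COL3A1, which marks fibroblasts, were at 3.63 and 3.97, the lowest of their lists. The other leukocyte markers measured, CD14 and CD3E, were at 6.90 and 5.77. The fibroblast or endothelial markers COL1A1, PECAM1, PDGFRB and VWF were at 7.70, 6.88, 6.39 and 5.29. Markers of cells not in the culture thus overlapped in level with MUC2 and MUC5AC. Correlations between arrays of a group ran from 0.9973 to 0.9987, and the medians of the arrays from 6.45 to 6.49. As the RNA comes from mixed cells, a change in the share of a cell type and a change in RNA per cell cannot be told apart in any result here.

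Across the series, the mean log2 level was 11.07 for MXI1, 10.38 for the brightest MAX probe set (209332_s_at), 9.90 for that of MLX (213708_s_at), 9.80 for MYC, 8.86 for MNT and 5.04 for MXD1. Levels of different probe sets depend on their probes and are not amounts of transcript. MXD1 lay at percentile 28.7 of all probe sets and the other 5 at percentile 78.7 or above. The range of group means was 1.31 for MXI1 and 1.11 for MYC. It was 0.33 for MAX 209332_s_at, 0.29 for MNT, 0.26 for MXD1 and 0.18 for MLX 213708_s_at. Movement across the groups was thus mostly that of MXI1 and MYC.

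**Figure D1:**
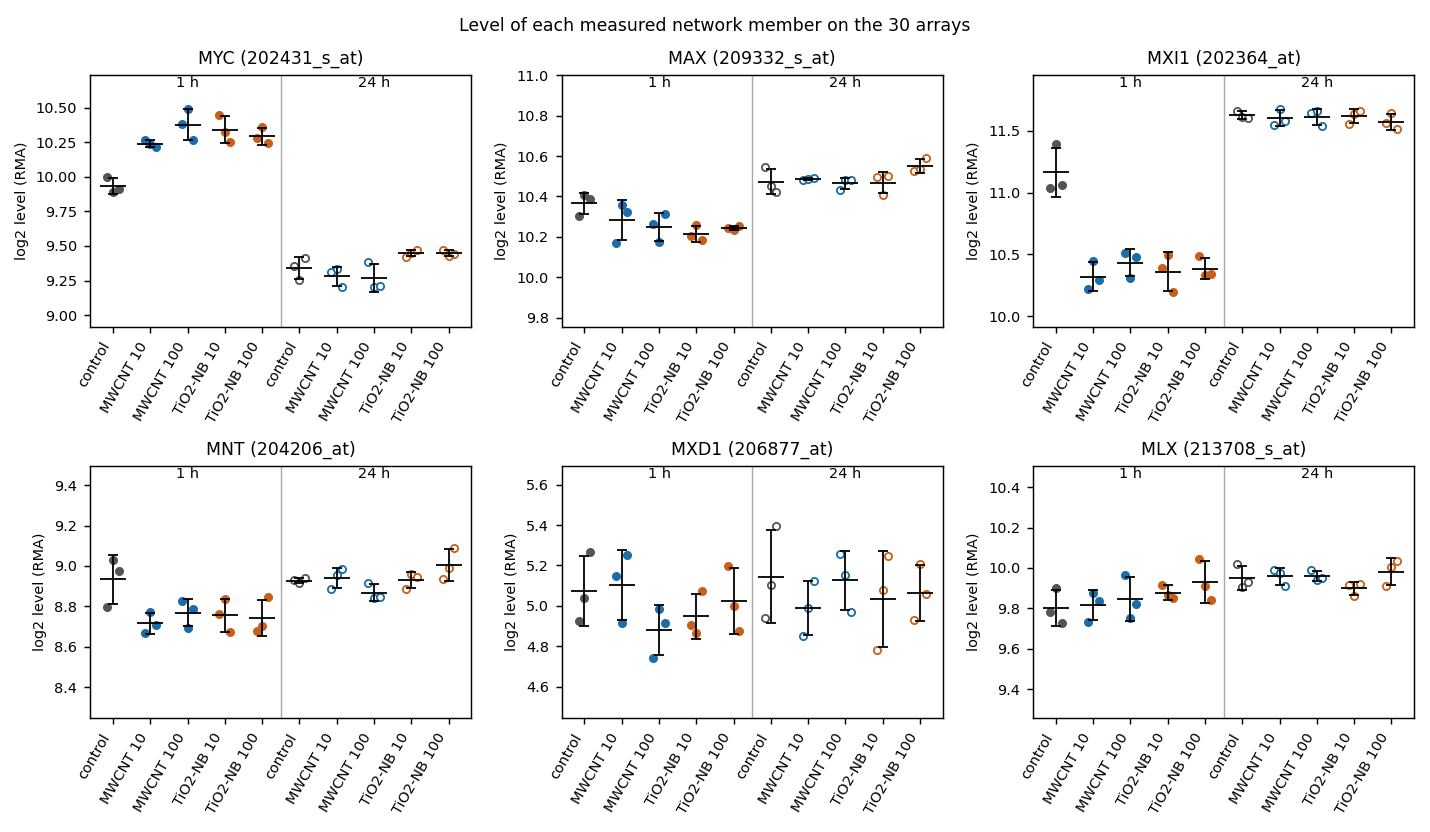
Log2 level of MYC, MAX, MXI1, MNT, MXD1 and MLX (1 probe set each, named in the panel title) on every array, by group, with doses in µg/ml; filled points are 1 h and open points 24 h, and bars are the mean ± SD of 3 arrays. Each vertical axis covers its own range and does not start at 0. At 1 h, all exposed arrays are above the controls for MYC and below them for MXI1, while the 24 h groups of MXI1 lie together.

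MYC, the activator of the network (probe set 202431_s_at), was higher in every exposed group at 1 h. The 1 h controls read 10.00, 9.89 and 9.91. After 1 h of MWCNT, the arrays read 10.26, 10.24 and 10.22 at 10 µg/ml and 10.39, 10.49 and 10.26 at 100 µg/ml. After 1 h of TiO2-NB, they read 10.45, 10.32 and 10.25 at 10 µg/ml and 10.28, 10.36 and 10.24 at 100 µg/ml. The lowest of these 12 exposed arrays was above the highest control, so that no group overlapped with the control. The log2 change from control, with its standard error from the fit (± in what follows, n = 3 arrays per group), was 0.31 ± 0.060 and 0.44 ± 0.060 for MWCNT at 10 and 100 µg/ml. It was 0.41 ± 0.060 and 0.36 ± 0.060 for TiO2-NB, so the fold differences ran from 1.24 to 1.36. The changes with MWCNT were past the threshold in the fit of all arrays but not when only the arrays compared were fitted.

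MXI1, a repressor that competes with MYC for MAX (probe set 202364_at), had the largest differences of any member. The 1 h controls read 11.04, 11.40 and 11.07. After 1 h of MWCNT, the arrays read 10.22, 10.44 and 10.30 at 10 µg/ml and 10.51, 10.31 and 10.48 at 100 µg/ml. After 1 h of TiO2-NB, they read 10.39, 10.50 and 10.19 at 10 µg/ml and 10.48, 10.33 and 10.34 at 100 µg/ml. Every exposed array was below every control, and the highest exposed array (10.51) was well under the lowest control (11.04). The log2 change was -0.85 ± 0.084, -0.73 ± 0.084, -0.81 ± 0.084 and -0.78 ± 0.084 for MWCNT 10, MWCNT 100, TiO2-NB 10 and TiO2-NB 100 µg/ml. The corresponding folds, control over exposed, were 1.80, 1.66, 1.75 and 1.72. The 4 comparisons share the same 3 controls and are not independent of each other.

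MNT, the MAX partner with the broadest expression among the repressors (204206_at), was lower at 1 h by a smaller amount. The controls read 8.79, 9.03 and 8.98. With MWCNT, the arrays read 8.67, 8.77 and 8.71 at 10 µg/ml and 8.83, 8.69 and 8.79 at 100 µg/ml. With TiO2-NB, they read 8.76, 8.84 and 8.67 at 10 µg/ml and 8.68, 8.70 and 8.85 at 100 µg/ml. The lowest control lies inside the range of all exposed groups but that of MWCNT 10 µg/ml. The log2 change was -0.22 ± 0.059 and -0.17 ± 0.059 for MWCNT and -0.18 ± 0.059 and -0.19 ± 0.059 for TiO2-NB, at 10 and 100 µg/ml. MNT passed the threshold for MWCNT 10 and TiO2-NB 100 µg/ml, and neither call held when control replicate 2 or 3 was left out (-0.17 and -0.20 for MWCNT, -0.14 and -0.17 for TiO2-NB). The MWCNT call was also lost without exposed replicate 1 (-0.19) or 3 (-0.21), the TiO2-NB call without exposed replicate 1 (-0.16) or 2 (-0.17), and both with only the arrays compared. A second quantile normalisation, median centring and array weights each lost the TiO2-NB call as well.

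MAX, the shared partner, was lower at 1 h by 1 probe set, without passing the threshold. For 209332_s_at, the controls read 10.30, 10.41 and 10.39 and the exposed group means were 10.28, 10.25, 10.22 and 10.24 for MWCNT 10, MWCNT 100, TiO2-NB 10 and TiO2-NB 100 µg/ml. The log2 changes were -0.08, -0.12, -0.15 and -0.12 (each ± 0.047). Both TiO2-NB groups lay wholly below the controls, whereas the MWCNT groups overlapped with them. Over the 5 MAX probe sets, the changes at 1 h ran from -0.15 to 0.10, so the probe sets did not agree in sign. MXD1, a repressor induced on differentiation, had changes from -0.19 to 0.03 at its low level, with 1 h controls at 4.92, 5.04 and 5.26. The 4 probe sets of MLX had changes from -0.06 to 0.13. None of these passed the threshold in any comparison with control.

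Of the 13 probe sets, 3 were called with MWCNT 10 µg/ml at 1 h (1 higher, 2 lower), 2 with MWCNT 100 µg/ml, 2 with TiO2-NB 10 µg/ml (each 1 higher, 1 lower) and 3 with TiO2-NB 100 µg/ml (1 higher, 2 lower). Over all probe sets, 6.46%, 7.78%, 7.84% and 8.43% were called in these comparisons, of which 2.56%, 3.51%, 2.61% and 2.65% higher and 3.9%, 4.27%, 5.24% and 5.78% lower. Because the members were chosen with the 1 h results known, nothing is read from these shares. Groups did not overlap in 9.87% to 10.1% of all probe sets in the higher direction and in 11.4% to 13.7% in the lower direction.

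**Figure D2:**
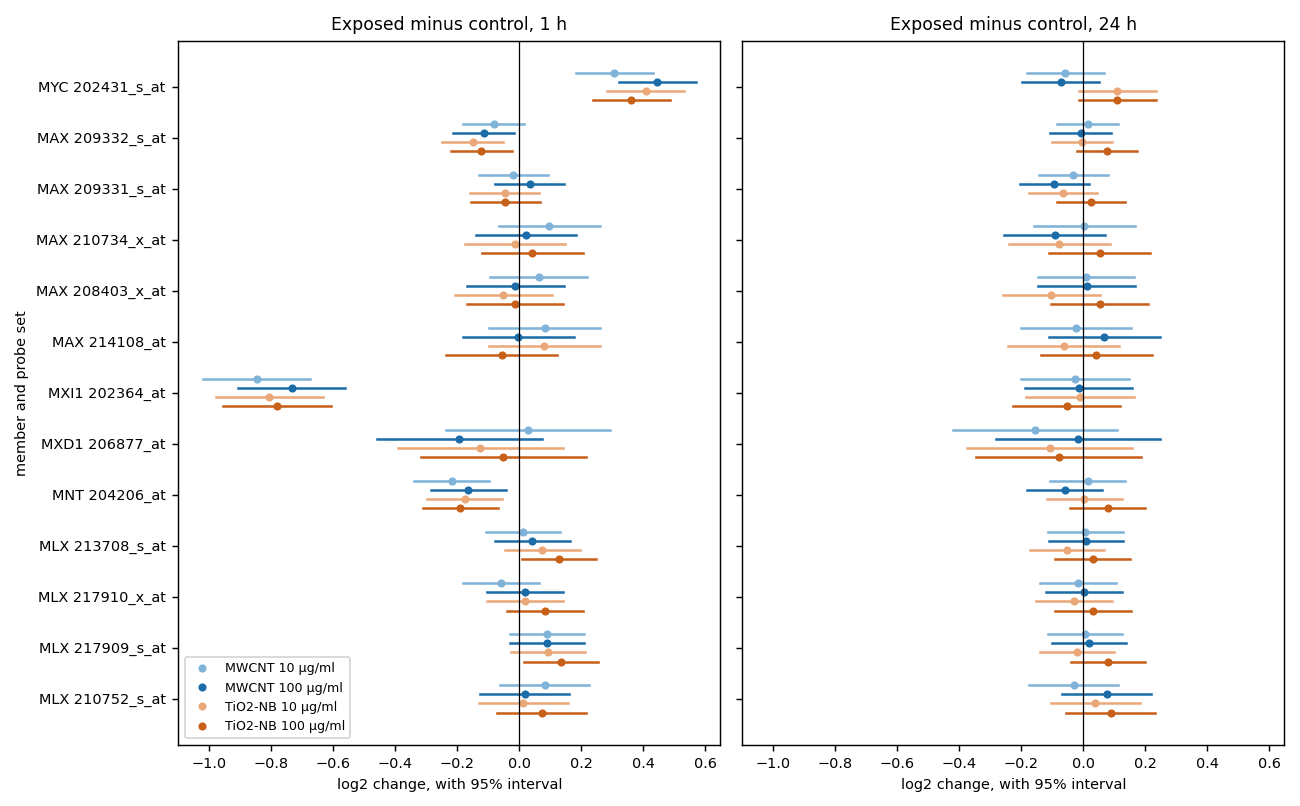
Log2 change from the control of the same time for all 13 member probe sets, at 1 h (left) and 24 h (right), with the 95% interval of the fit; colours are the particle and dose. At 1 h, the intervals of MXI1 lie wholly below 0 and those of MYC wholly above, and at 24 h every interval includes 0.

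Signs of RNA quality differed at 1 h in the same comparisons. The 18S ribosomal RNA 5′ control probe set was higher than control by 1.17 and 1.51 log2 units with MWCNT and by 0.84 and 0.80 with TiO2-NB, at 10 and 100 µg/ml. The exact two-sided permutation p was 0.1, 0.1, 0.4 and 0.1, and 0.1 is the smallest that 3 arrays against 3 can give. The 28S 5′ control probe set was higher by 0.47, 0.65, 0.44 and 0.34. The other control probe sets of these RNAs differed in size and sign. The 18S middle one was higher by 0.70, 0.99, 0.42 and 0.42, and the 18S 3′ one by 0.17, 0.29, 0.15 and 0.09. The 28S middle one differed by -0.03, -0.14, -0.003 and -0.11, and the 28S 3′ one by -0.01, 0.08, 0.16 and 0.11. The TiO2-NB 10 µg/ml replicate 3 had an 18S level of 8.50, below the 3 controls at 8.61, 8.62 and 8.81, and its MXI1 level of 10.19 was the lowest of all 30 arrays. Its MYC level of 10.25 was above all controls. In each other exposed group of 1 h, the array with the highest 18S level had the lowest MXI1 level of its group. These were MWCNT 10 µg/ml replicate 1 (18S 10.06, MXI1 10.22) and MWCNT 100 µg/ml replicate 2 (10.78 and 10.31). With TiO2-NB 100 µg/ml it was replicate 2 (10.10 and 10.33). In a fit that also held the 18S level, added once the data had been seen, the MXI1 changes were -0.87, -0.76, -0.82 and -0.80 and the MYC changes 0.23, 0.34, 0.35 and 0.31. MYC then missed the threshold with MWCNT 10 µg/ml, and neither MNT call held.

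**Figure D3:**
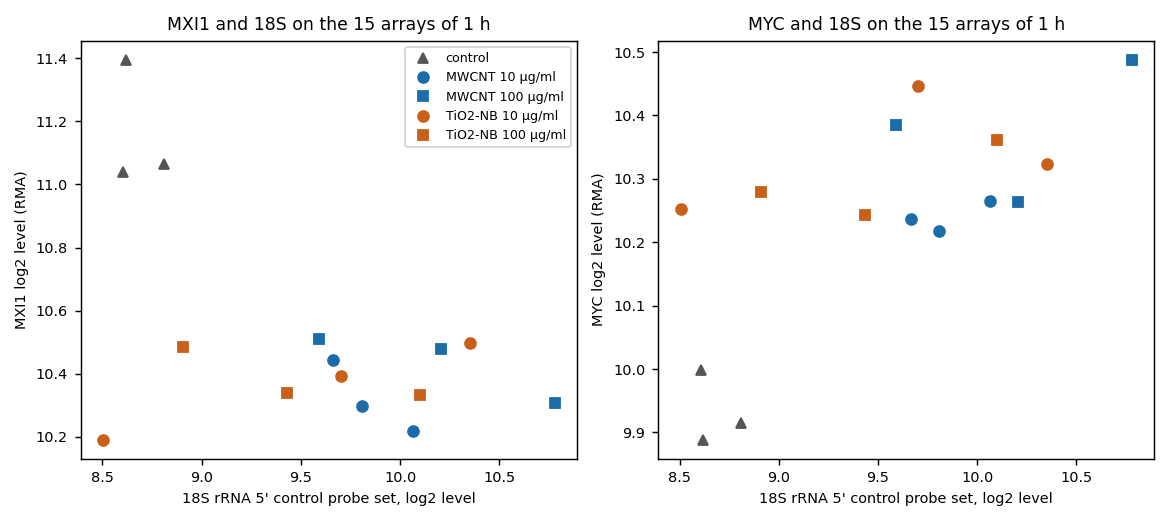
MXI1 (left) and MYC (right) log2 level against the log2 level of the 18S 5′ control probe set on the 15 arrays of 1 h; triangles are controls, circles 10 and squares 100 µg/ml, blue MWCNT and orange TiO2-NB. The exposed array at the far left (TiO2-NB 10 µg/ml), at an 18S level of 8.50, has the lowest MXI1 of all, at 10.19. In each other exposed group, the array with the highest 18S level has the lowest MXI1 of its group.

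Some markers of the cell types were called at 1 h, with changes of the size of those of MYC and MNT. Of 11 enterocyte markers, 0 passed with MWCNT 10 µg/ml and with either dose of TiO2-NB, and 2 passed with MWCNT 100 µg/ml (APOB 0.37, CDX2 -0.24). Of 4 general epithelial markers, 1 passed with TiO2-NB 10 µg/ml and 0 in the other comparisons. Of 10 mucus cell markers, MUC13 was higher in all 4 comparisons, by 0.17 to 0.23, and no other passed. Among 5 proliferation markers, MKI67 passed with MWCNT 100 µg/ml (0.32) and none in the other 3. Of the 3 leukocyte markers and 5 fibroblast or endothelial markers measured, 0 passed. Over all genes, 2.71%, 3.79%, 3.02% and 3.07% were called higher with MWCNT 10, MWCNT 100, TiO2-NB 10 and TiO2-NB 100 µg/ml. Called lower were 5.15%, 5.65%, 6.5% and 7.44%. With lists this short, nothing about cell makeup is read from the marker counts. The summed linear level of the enterocyte markers differed from control by 0.05 to 0.11 log2 units and that of the mucus cell markers by -0.05 to 0.04. The part of RNA quality and of cell makeup in the MXI1, MYC and MNT values was not tested beyond these measurements.

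Whether the 1 h levels depended on dose or particle was tested without the controls. The low MXI1 known when members were chosen is a difference from control, but the choice was made with earlier results of these data known. None of the 13 probe sets passed for 100 against 10 µg/ml at 1 h or 24 h, for either particle or both pooled, in 6 limma comparisons. At 1 h, MYC was 0.14 higher with MWCNT at 100 than at 10 µg/ml (95% interval 0.02 to 0.26, adjusted p = 0.6938 by limma), the only member under an unadjusted p of 0.05 in these 6 comparisons. For MXI1 the difference of the doses, pooled over particles at 1 h, was 0.07 (95% interval -0.05 to 0.19). Over all probe sets, 0% to 0.0045% were called for dose at 1 h and 0% to 1.83% at 24 h. For MWCNT against TiO2-NB at 1 h, 0 of 13 passed at either dose or pooled, with 0 at an unadjusted p under 0.05, and 0.0675%, 0% and 0.563% of all probe sets were called. The pooled difference at 1 h was 0.00 for MXI1 (95% interval -0.12 to 0.13) and -0.01 for MYC (95% interval -0.10 to 0.08).

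At 24 h, no member passed the threshold against control. Of the 13 probe sets, 0 passed in each of the 4 comparisons by limma, and 0 had an unadjusted p under 0.05. Over all probe sets, 0.0045%, 0.009%, 0.0585% and 3.53% were called for MWCNT 10, MWCNT 100, TiO2-NB 10 and TiO2-NB 100 µg/ml. For TiO2-NB this was 0.0225% higher and 0.036% lower at 10 µg/ml, and 0.729% higher and 2.8% lower at 100 µg/ml. MXI1 read 11.66, 11.61 and 11.61 in controls. With MWCNT it read 11.55, 11.67 and 11.58 at 10 µg/ml and 11.64, 11.66 and 11.54 at 100 µg/ml. With TiO2-NB it read 11.55, 11.64 and 11.66 at 10 µg/ml and 11.56, 11.64 and 11.52 at 100 µg/ml. All 5 groups overlapped, with changes of -0.03, -0.01, -0.01 and -0.05 from control. The 95% intervals reached no further than -0.23 and 0.16, so that a difference of the size seen at 1 h lies outside each of them. A moderated F-test over the 5 groups gave an adjusted p of 0.9951 for MXI1 by limma, with 3.14% of all probe sets called.

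Among the comparisons within 24 h, MYC passed the threshold only between the particles with both doses pooled. It read 9.35, 9.26 and 9.41 in controls. With MWCNT it read 9.31, 9.33 and 9.20 at 10 µg/ml and 9.38, 9.20 and 9.21 at 100 µg/ml. With TiO2-NB it read 9.42, 9.45 and 9.47 at 10 µg/ml and 9.47, 9.43 and 9.44 at 100 µg/ml. All 6 TiO2-NB arrays were above all 6 MWCNT arrays, as in 0.653% of all probe sets (the reverse held in 0.504%), and also above the 3 controls, which the MWCNT arrays overlapped. Among all probe sets, 7.36% and 13% lay wholly above the controls with TiO2-NB 10 and 100 µg/ml. Against control, the changes were -0.06, -0.07, 0.11 and 0.11 (each ± 0.060), for which the adjusted p by limma was 0.9995, 0.9634, 0.7191 and 0.4734. The F-test over all 5 groups at 24 h did not pass for MYC (adjusted p = 0.1704 by limma), nor did that over the 4 exposed groups (0.1039). With both doses pooled, MYC was lower with MWCNT than with TiO2-NB by a log2 difference of -0.17 ± 0.042 (group means 9.27 and 9.45, 1.13-fold, n = 6 arrays each, adjusted p = 0.01913 by limma). It was the only one of the 13 called there, against 3.1% of all probe sets, 0.743% in this direction. The difference was -0.17 at 10 µg/ml (adjusted p = 0.7529) and -0.18 at 100 µg/ml (adjusted p = 0.122), so that neither dose passed alone by limma. The pooled call was lost when MWCNT 10 µg/ml replicate 3 (adjusted p = 0.06542), MWCNT 100 µg/ml replicate 2 (0.06603) or replicate 3 (0.05811) was left out, where the difference was -0.15, -0.16 and -0.16.

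The other members at 24 h stayed within narrow bounds of control. MNT read 8.93, 8.91 and 8.94 in controls and between 8.84 and 9.09 in the exposed arrays, with changes of 0.01, -0.06, 0.00 and 0.08. The MAX probe sets had changes from -0.10 to 0.08, those of MLX from -0.05 to 0.09 and MXD1 from -0.16 to -0.02. The widest 95% interval was that of MXD1, which reached -0.42, since its arrays vary most (pooled SD 0.17 within groups, against 0.07 for MYC). Between particles at 100 µg/ml, 5 of 13 probe sets, 1 each of MYC and MNT and the others of MAX, had all MWCNT arrays below all TiO2-NB arrays. The share of all probe sets that do so was not counted, so nothing is read from this number. By limma, 3 of 13 had an unadjusted p under 0.05 there, as had 2803 of all 22215, and 0 passed (2.88% of all). At 10 µg/ml, 1 of 13, that of MYC, was separated in this way, again without a counted share to set it against.

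Between 1 h and 24 h, MXI1 and MYC also moved in the controls, in opposite directions. From 1 h to 24 h, control MXI1 was higher by 0.46 ± 0.084 and control MYC lower by 0.59 ± 0.060 log2 units. In the exposed groups, the MXI1 difference was 1.28, 1.18, 1.26 and 1.19 for MWCNT 10, MWCNT 100, TiO2-NB 10 and TiO2-NB 100 µg/ml, and the MYC difference was -0.96, -1.11, -0.89 and -0.85. Wells of 1 h and 24 h also differ in the time since their medium was renewed, so time in exposure and time since that change cannot be told apart. Called members numbered 2 of 13 in controls (background 18.1%), 5 with MWCNT 10 µg/ml (21.2%), 3 with MWCNT 100 µg/ml (25.4%), 5 with TiO2-NB 10 µg/ml (27.3%) and 5 with TiO2-NB 100 µg/ml (27%). The exposed arrays of 1 h enter both these values and those against control, so the time differences add no independent evidence. In order, the group means of MXI1 ran from 10.32 to 10.43 in the exposed 1 h groups, then 11.17 in the 1 h control, then 11.57 to 11.63 in all 24 h groups. For MXI1, the F-test over the 4 exposed groups of 1 h did not pass (adjusted p = 0.8262 by limma, 0.018% of all probe sets called). Nor did that over the 4 exposed groups of 24 h (adjusted p = 0.992 by limma, 3.14% of all probe sets called).

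**Figure D4:**
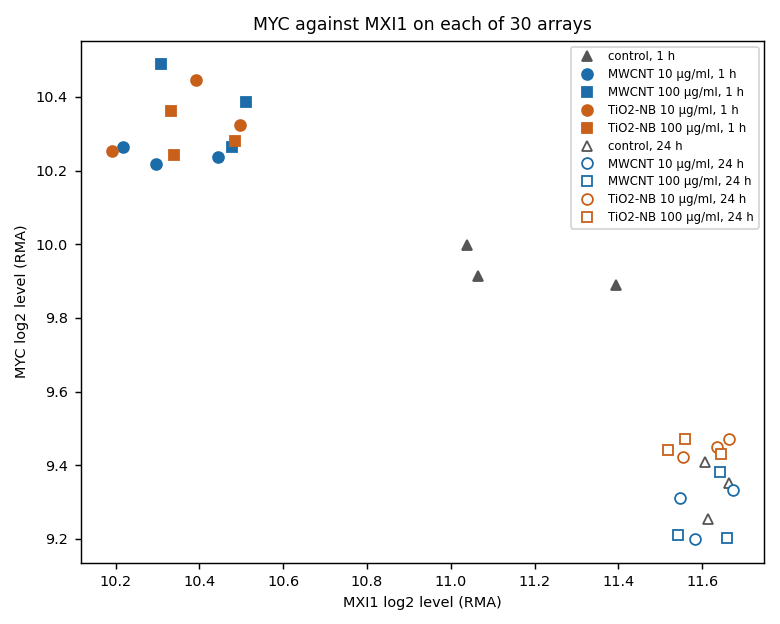
MYC against MXI1 log2 level on each of the 30 arrays; triangles are controls, circles 10 and squares 100 µg/ml, grey control, blue MWCNT and orange TiO2-NB, filled at 1 h and open at 24 h. The arrays form 3 clusters: the 12 exposed arrays of 1 h with low MXI1 and high MYC, the 3 controls of 1 h, and the 15 arrays of 24 h.

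Over time, MNT differed in the exposed groups and the MAX probe sets disagreed. MNT was higher at 24 h than at 1 h by 0.23 with MWCNT 10 µg/ml, 0.17 with TiO2-NB 10 µg/ml and 0.26 with TiO2-NB 100 µg/ml, which passed the threshold, and by 0.10 with MWCNT 100 µg/ml, which did not. In controls the difference was -0.01. The call with TiO2-NB 10 µg/ml was lost in 4 of 6 fits that left out 1 array (down to 0.13) and with only the compared arrays. MAX 209332_s_at was higher by 0.20, 0.21, 0.25 and 0.31 in the exposed groups, past the threshold in all 4, and by 0.11 in controls, which was not. MAX 214108_at went the other way, lower by a log2 difference of -0.30 with MWCNT 10 µg/ml and -0.34 with TiO2-NB 10 µg/ml. The first of these calls was lost without replicate 3 of 1 h (-0.27) or replicate 2 of 24 h (-0.24). As the MAX probe sets disagree, the mean over all 5 was -0.02 and -0.01 in these groups, and no direction for MAX as a gene is given.

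Other genes of the network were followed in 5 lists with 114 genes, of which 94 were measured by a probe set of their own. These lists were drawn up with earlier results of the data known. At 1 h, 3 of 94 were called higher and 6 lower with MWCNT 10 µg/ml, 9 and 5 with MWCNT 100 µg/ml, 5 and 7 with TiO2-NB 10 µg/ml, and 5 and 8 with TiO2-NB 100 µg/ml. Over all 11963 genes, 2.71%, 3.79%, 3.02% and 3.07% were called higher and 5.15%, 5.65%, 6.5% and 7.44% lower, against 3.19%, 9.57%, 5.32% and 5.32% higher and 6.38%, 5.32%, 7.45% and 8.51% lower in the lists. The median change of the 94 genes was 0.01, 0.02, 0.03 and 0.01, and of all genes -0.02, -0.01, 0.00 and 0.00. These counts are sensitive: with only the compared arrays in the fit, they fell to 0, 0, 0 and 2 genes, SAP30 and RRS1 with TiO2-NB 100 µg/ml. With 18S in the fit, 3 and 2 genes were called for MWCNT 10 and 100 µg/ml. Without control replicate 2 they were 4, 9 and 5 in the first 3 comparisons, and 3 without MWCNT 10 µg/ml replicate 3. They were 7 of 12 without TiO2-NB 10 µg/ml replicate 1 and 8 of 13 without TiO2-NB 100 µg/ml replicate 2.

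Among partners and co-regulators (26 of 31 measured), 0 were higher and 2 lower at 1 h with MWCNT 10 µg/ml, 3 and 2 with MWCNT 100 µg/ml, and 1 and 1 with each dose of TiO2-NB. SAP30, a subunit of the SIN3 histone deacetylase complex that MXD proteins recruit, was lower in all 4 comparisons. Its controls read 7.20, 7.50 and 7.35, and its log2 change was -0.28, -0.35, -0.39 and -0.54 (each ± 0.080). At 24 h its changes were 0.05, 0.12, 0.11 and 0.09, none past the threshold. The SAP30 call with MWCNT 10 µg/ml did not hold in 5 of the 6 fits that left out 1 array, nor that with MWCNT 100 µg/ml without control replicate 2 (-0.27) or exposed replicate 1 (-0.22). With only the compared arrays, SAP30 passed for TiO2-NB 100 µg/ml alone. KAT5, the acetyltransferase of a MYC co-activator complex, changed by 0.07, 0.09, 0.17 and 0.11 at 1 h and passed for TiO2-NB 10 µg/ml alone, a call lost in 4 of 6 fits that left out 1 array. MYCN, a MYC paralogue, changed by 0.20, 0.08, 0.18 and 0.08, and MLXIPL, the glucose-responsive partner of MLX, by -0.06, -0.02, -0.03 and -0.06, none past the threshold. TRRAP (0.37), EP400 (0.29) and HCFC1 (0.23), which act in co-activator complexes, and MXD3 (-0.21), a further MXD repressor, were called with MWCNT 100 µg/ml, and HCFC1 also with TiO2-NB 100 µg/ml (0.18). These 4 were chosen after their values were seen. With 18S in the fit none of these calls held, and TRRAP and EP400 were at 0.17 and 0.15. The EP400 call was also lost in 5 of 6 fits that left out 1 array, that of MXD3 in 2, and those of HCFC1 in 1 and 3.

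Of the genes that act on MYC protein stability (9 of 12 measured), 0 were higher and 1 lower in each 1 h comparison. This was PPP2R5A, a regulatory subunit of protein phosphatase 2A that favours MYC degradation, which changed by -0.15, -0.16, -0.13 and -0.24 (each ± 0.038). Its calls at 10 µg/ml were each lost in 4 of the 6 fits that left out 1 array, and all 4 were lost with only the compared arrays. SKP2, an F-box protein that ubiquitinates MYC, changed by -0.07, -0.20, -0.07 and -0.26, and USP36, a nucleolar deubiquitinase, by 0.31, 0.22, 0.00 and 0.16, none past the threshold. At 24 h, FBXW7, the F-box protein that targets phosphorylated MYC, fell with TiO2-NB 100 µg/ml by 0.47 on the log2 scale (SE 0.095, group means 6.02 and 6.49, adjusted p = 0.002412 by limma). It was also lower at 100 than at 10 µg/ml TiO2-NB (-0.36, adjusted p = 0.04759 by limma), a call lost in 4 of 6 fits that left out 1 array. FBXW7 was chosen after its values were seen, and the call against control was lost when only the compared arrays were fitted (adjusted p = 0.08811). GSK3B, a kinase that phosphorylates MYC for recognition by FBXW7, was higher with MWCNT than with TiO2-NB over pooled doses at 24 h by 0.16 ± 0.042 (adjusted p = 0.03809 by limma), where 1.9% of genes were called higher. This call was lost in 8 of 12 fits that left out 1 array.

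Of genes known to be activated by MYC (38 of 46 measured), 2 were higher and 1 lower with MWCNT 10 µg/ml at 1 h, 4 and 2 with MWCNT 100 µg/ml, 4 and 2 with TiO2-NB 10 µg/ml, and 2 and 2 with TiO2-NB 100 µg/ml. The median change of the list was 0.04, 0.03, 0.06 and 0.02. RRS1, a ribosome assembly factor, was higher in all 4. Its controls read 9.51, 9.36 and 9.51 and its exposed arrays between 9.73 and 9.85, a change of 0.35, 0.36, 0.34 and 0.36 (each ± 0.046). All 4 RRS1 calls held with any 1 array left out, and the 3 other than TiO2-NB 100 µg/ml were lost with only the compared arrays. NIP7, another ribosome assembly factor, changed by 0.36, 0.35, 0.23 and 0.25 and missed the threshold for TiO2-NB 10 µg/ml. Its call with TiO2-NB 100 µg/ml was lost in 4 of 6 fits that left out 1 array, and no NIP7 call held with 18S in the fit. ODC1, the first enzyme of polyamine synthesis and a classical MYC target, changed by 0.04, 0.08, 0.21 and 0.08 and passed for TiO2-NB 10 µg/ml alone, a call lost in 2 of 6 fits that left out 1 array. MRTO4, a ribosome assembly factor, changed by 0.03, -0.08, 0.11 and -0.04 and did not pass. WDR12, a further ribosome assembly factor chosen after its values were seen, was lower in all 4, by -0.15, -0.18, -0.16 and -0.19, and its calls at 10 µg/ml were lost in 4 (MWCNT) and 2 (TiO2-NB) of 6 such fits. With 18S in the fit, neither WDR12 call with MWCNT held. At 24 h against control, 0 of 38 passed in all 4 comparisons.

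Of genes known to be repressed by MYC (11 of 14 measured), none was higher at 1 h, and 1, 0, 1 and 1 were lower. GADD45A, a growth arrest gene, changed by -0.20, -0.11, -0.17 and -0.09 and passed for MWCNT 10 µg/ml, a call lost in 4 of 6 fits that left out 1 array, with median centring, with array weights and with 18S in the fit. NDRG1, chosen after its values were seen, was the lower one with TiO2-NB (-0.30 and -0.22), with the calls lost in 2 and 4 of 6 such fits. The cyclin-dependent kinase inhibitors CDKN1A (0.04, 0.08, 0.05 and 0.17) and CDKN1B (0.19, 0.15, 0.05 and 0.08), and CEBPA, a differentiation factor (-0.03, 0.07, 0.05 and 0.04), did not pass. At 24 h, KLF6, a zinc finger factor also chosen after its values were seen, fell with TiO2-NB 100 µg/ml by 0.88 on the log2 scale (SE 0.173, group means 8.82 and 9.69, adjusted p = 0.001986 by limma). It was lower there than with TiO2-NB 10 µg/ml (-0.71, adjusted p = 0.02691 by limma), and MWCNT 100 µg/ml was above TiO2-NB 100 µg/ml (0.70, adjusted p = 0.02245 by limma). Without TiO2-NB 100 µg/ml replicate 3, the KLF6 change from control was -0.54, still called, and the other KLF6 differences were -0.37 and 0.36, no longer called. With the compared arrays alone, the KLF6 call against control was lost (adjusted p = 0.2046).

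Of genes known to be activated by MLX with MLXIP or MLXIPL (10 of 11 measured), 1 was higher and 1 lower at 1 h with MWCNT 10 µg/ml, 2 and 0 with MWCNT 100 µg/ml, 0 and 2 with TiO2-NB 10 µg/ml, and 2 and 3 with TiO2-NB 100 µg/ml. FASN, the fatty acid synthase, changed by 0.24, 0.34, 0.16 and 0.35 and missed the threshold for TiO2-NB 10 µg/ml. Its call with MWCNT 10 µg/ml was lost in 3 of 6 fits that left out 1 array, and neither MWCNT call held with 18S in the fit. G6PC1, the glucose 6-phosphatase, changed by 0.32, 0.42, 0.12 and 0.36 and passed at both 100 µg/ml doses, but the TiO2-NB call was lost in all 6 fits that left out 1 array and the MWCNT call in 2 of 6. Neither held with 18S in the fit. KLF10, an early TGF-beta-induced repressor, changed by -0.24, -0.17, -0.34 and -0.28 and missed with MWCNT 100 µg/ml. Its call with MWCNT 10 µg/ml was lost in 5 of 6 fits that left out 1 array, with median centring and with 18S in the fit, and that with TiO2-NB 100 µg/ml in 2 of 6. PKLR, a pyruvate kinase, passed with TiO2-NB 100 µg/ml alone (-0.18), a call lost in 5 of 6 fits that left out 1 array, with a second quantile normalisation, with median centring and with array weights. At 24 h, 0 of 10 passed against control, and FASN was lower with MWCNT than with TiO2-NB over pooled doses by a log2 difference of -0.18 ± 0.044 (adjusted p = 0.01765 by limma), where 0.945% of genes were called lower. This call was lost in 4 of 12 fits that left out 1 array.

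**Figure D5:**
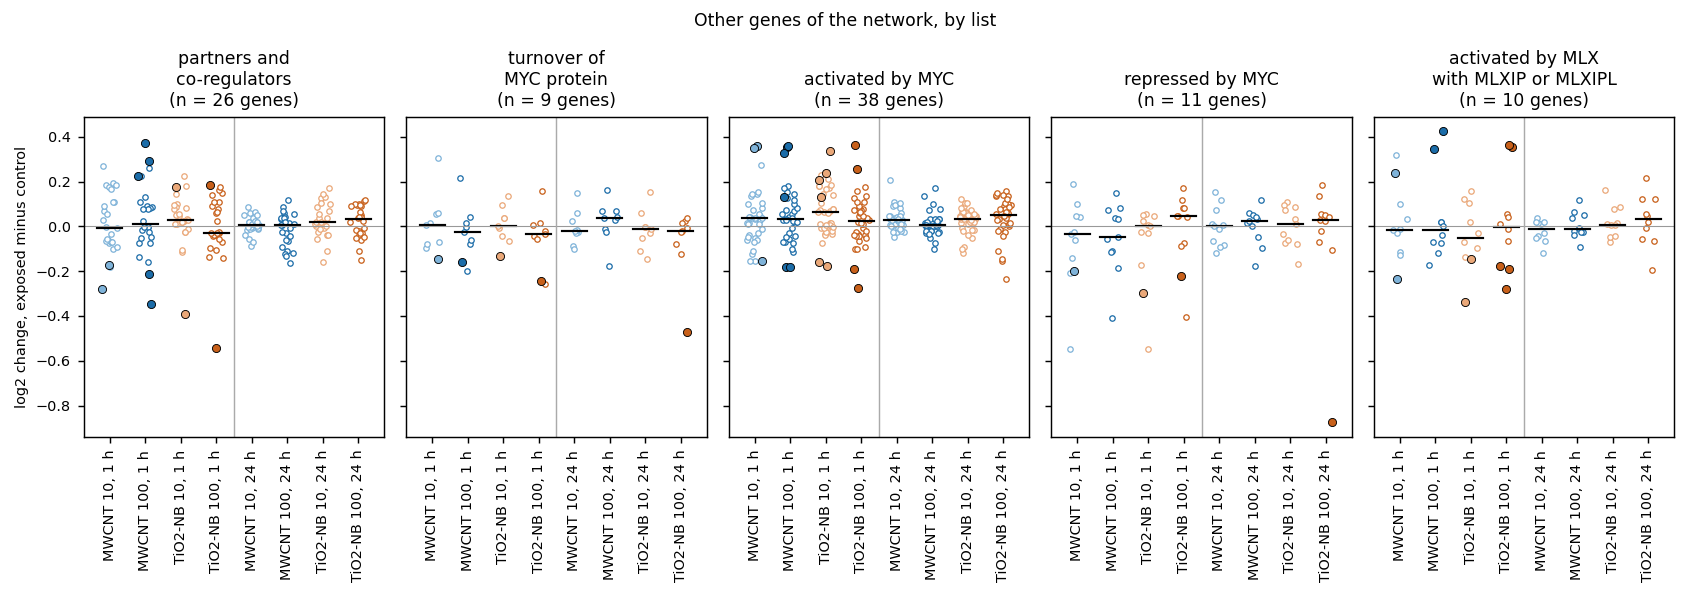
Log2 change from the control of the same time for each measured gene of 5 lists (panels), in the 8 comparisons with control, doses in µg/ml; large filled points passed an adjusted p of 0.05, small open points did not, and horizontal bars are list medians. The medians stay near 0 throughout, and at 24 h the passing points are FBXW7 and KLF6 with TiO2-NB 100 µg/ml.

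Over the 5 lists at 24 h, 0 of 94 genes passed for MWCNT at either dose or TiO2-NB 10 µg/ml, and 2 fell with TiO2-NB 100 µg/ml, or 2.13% against 2.3% of all genes called lower (0.853% higher). For TiO2-NB 10 µg/ml, 0.0167% of all genes were higher and 0.0334% lower, and for MWCNT 100 µg/ml 0.00836% were lower. Without TiO2-NB 100 µg/ml replicate 1, 4 genes passed in that comparison.

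In controls, 5 of the 94 genes were higher and 22 lower at 24 h than at 1 h (5.32% and 23.4%, against 8.79% and 12.3% of all genes), given as a description. Of genes known to be activated by MYC, RRS1 (-0.55), MRTO4 (-0.50), NIP7 (-0.41) and ODC1 (-0.28) were among the lower ones. GADD45A (-0.74) and CEBPA (-0.53), known to be repressed by MYC, were lower too, and KLF10 (-0.76) likewise. CDKN1B (0.43) and SAP30 (0.34) were higher.

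The genes whose 10 group means run most like those of MXI1 were PPFIBP2 (r = 0.998), KANK1 (0.997), ANKZF1 (0.997), STK3 (0.997) and CCDC28A (0.996), among 3982 genes whose group means span at least 0.3 log2 units. Of these, KANK1 spanned the most, from a mean of 7.88 with TiO2-NB 10 µg/ml at 1 h to 9.50 with TiO2-NB 10 µg/ml at 24 h, with the 1 h control at 8.90. For MYC they were PSMD12 (0.996), ZBTB24 (0.996), TINF2 (0.995), ADRM1 (0.995) and IFNGR1 (0.995). PSMD12 had a mean of 10.43 in the 1 h control, 10.63 to 10.65 in the exposed 1 h groups and 10.04 to 10.17 at 24 h. These correlations over 10 group means come from the same arrays and rest on the contrast of times and exposure, so they are a description only.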

How the data were processed

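The authors deposited log2 probe set levels on 30 Affymetrix arrays, made with RMA per the submitters' processing notes; neither its version nor the chip definition is named there (not given in the sources used here). RMA makes the arrays' distributions alike, so each change is relative to the other transcripts. Each array used 3 µg of total RNA per the labels' protocols. The values were used as deposited. Of 22277 probe sets, 62 controls were left out and 22215 tested; 19064 carry 1 gene symbol, 1043 several and 2108 none, and names were taken from those with 1. The probe set with the highest mean stands for a gene (11963 genes) in the lists, and all probe sets of the members were kept. The symbols of all 13 member probe sets matched RefSeq.

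A mean per group was fitted over all 30 arrays with limma 3.58.1 in R 4.3.3 (20 residual and 3.685 prior degrees of freedom). Each of 25 two-sided comparisons was adjusted by Benjamini-Hochberg across the probe sets tested, and a call is an adjusted p under 0.05. The scripts were tested on simulated data. The number of arrays limits the precision. Members, lists and tests were chosen with earlier results of these data known. By rule, every member is named, up to 4 genes per list with the smallest p over all 10 groups, and the 5 genes most like MXI1 and MYC. Alternatives were the arrays compared alone, a block for replicate number, leaving out dim probe sets, a second quantile normalisation, median centring, another variance model, array weights, each array left out, and, added later, 18S as a covariate.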

Additional observations from a re-analysis of the deposited data

Results flagged for a closer look

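At 24 h, the particles differed in MYC: over pooled doses, MWCNT minus TiO2-NB was -0.17 on the log2 scale, with all 6 MWCNT arrays below all 6 TiO2-NB arrays, as in 0.653% of all probe sets. The difference was tested directly by limma, and the call was lost when any of 3 MWCNT arrays was left out.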

How the results depend on the processing

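The 1 h values against control and the time differences are a description under every setting. The 24 h counts against control and the dose counts, all 0, did not change. With only the compared arrays fitted, member calls at 1 h were 1 with MWCNT 10 µg/ml and 1 with MWCNT 100 µg/ml, and list genes called were 0, 0, 0 and 2 at 1 h and 0 with TiO2-NB 100 µg/ml at 24 h. With 18S as a covariate, member calls with MWCNT 10 µg/ml at 1 h were 1 and list genes 3 and 2 for the MWCNT doses. Members called with TiO2-NB 10 µg/ml at 1 h were 4 with dim probe sets left out and 4 with the intensity trend, and 2 to 4 with 1 array left out. Controls at 24 h against 1 h had 4 called members after a second quantile normalisation. List genes with MWCNT 10 µg/ml at 1 h numbered 18 with dim probe sets left out, 18 with the intensity trend and 5 after median centring; with TiO2-NB 100 µg/ml at 24 h they numbered 5, 7 and 4, and 8 with array weights. With 1 array left out, list genes called at 1 h ran from 3 to 7, 9 to 12, 5 to 11 and 8 to 12, and with TiO2-NB 100 µg/ml at 24 h from 2 to 4. Particle calls at 24 h ran from 0 to 1, both pooled and at 100 µg/ml. The mean over the MAX probe sets reversed the difference between 24 h and 1 h with MWCNT 10 µg/ml (-0.018) and TiO2-NB 10 µg/ml (-0.010). Causes were not tested. The replicate numbers only name arrays: same-numbered arrays' deviations had a mean correlation of 0.0026, and 12 of 30 arrays were closest to their own number. With the replicate number as a block, MAX 209331_s_at at 24 h against 1 h with TiO2-NB 100 µg/ml missed the threshold (0.14), as did the list genes KAT2A and KLF10 with MWCNT 10 µg/ml, TFAM with MWCNT 100 µg/ml and NDRG1 with TiO2-NB 100 µg/ml at 1 h, and no other call changed.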

Other observations

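MXD4, a further MAX-binding repressor, shares its 3 probe sets with the microRNA gene MIR4800 in the annotation, so its values could belong to either name. For 210778_s_at, the 1 h controls read 7.58, 7.54 and 7.56 and the 24 h controls 6.85, 6.69 and 6.86. At 1 h, its log2 change from control was -0.28, -0.51, -0.37 and -0.29 for MWCNT 10, MWCNT 100, TiO2-NB 10 and TiO2-NB 100 µg/ml (each ± 0.175), and at 24 h 0.35, 0.01, -0.03 and -0.36. For 212346_s_at, the changes at 1 h were -0.10, -0.09, -0.05 and -0.05. For 212347_x_at, they were -0.03, -0.04, 0.02 and -0.01. None of the 3 probe sets passed the threshold against control at either time.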
